A study of Solanum lycopersicum x Solanum pennellii and Solanum lycopersicum and Solanum pennellii with 305 samples.

Results

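IL7-2 and IL7-3 are 2 introgression lines (ILs) of tomato in which a segment of chromosome 7 of the cultivated plant, Solanum lycopersicum cv. M82, is replaced by the matching segment of the wild, green-fruited relative Solanum pennellii (LA0716). Their libraries were taken by line name from the labels: 4 of IL7-2 and 4 of IL7-3, 8 of the 305 root libraries used here, and both lines were compared with the 4 libraries of M82. The panel holds 75 ILs and both parents, with 3 libraries of S. pennellii. Each library was made from 7 to 14 root tips, cut 1 cm from the end, of untreated seedlings 3 to 4 days after germination, and replicates of a number were grown at the same time.

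An introgression line carries a wild segment in an otherwise cultivated genome, so a gene that differs from M82 inside the segment can be read as a cis-eQTL of that segment and one that differs elsewhere as a trans-eQTL. A cis difference is one in which a gene's own copy is exchanged, and a trans difference is one in a gene whose copy is still that of M82. Lines with overlapping segments divide a chromosome into bins, because a cis difference should be found in the lines that carry the bin and be missing from the lines that do not. The 2 lines here serve to ask which differences follow the shared wild segment and which are found in 1 line.

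By the authors' position labels, the segment of both lines began at Solyc07g048010 (identifiers follow the order of the genes along the chromosome). It ended at Solyc07g063370 in IL7-3 and ran on to Solyc07g066670, the last labelled gene of the chromosome, in IL7-2. The labelled segment of IL7-3 thus lay inside that of IL7-2. Of 1410 genes of chromosome 7 that were tested, 724 lay before both segments, 448 in the shared segment and 238 in the stretch that only IL7-2 carries. Tested genes of other chromosomes numbered 18181. The files do not pair identifiers with names, so genes are given by identifier, and the tissue could not be checked against marker genes.

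The libraries held 3288954 to 5829224 reads in IL7-2, 3073851 to 4497444 in IL7-3 and 3078847 to 4835467 in M82. IL7-3 replicate 1 stood apart: across genes, its log2(CPM + 1) values (CPM, reads scaled to a common library size) had a median correlation of 0.914 with the other 11 libraries, against 0.963 to 0.982 for each of those. The library most like it was IL7-2 replicate 1, at r = 0.968. In IL7-3 replicate 1, 2165 of 19591 tested genes were more than 2-fold above the mean of the other IL7-3 libraries and 2183 more than 2-fold below. The counts below are therefore also given without this library and without IL7-2 replicate 1.

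First, the 4 libraries of each line were set against the 4 of M82 in edgeR's quasi-likelihood test, and genes whose p, adjusted after Benjamini and Hochberg, did not exceed 0.01 were called. In IL7-2, 211 of 19591 genes (1.08%) were called, 93 higher (0.475%) and 118 lower (0.602%) than in M82. Chromosome 7 held 144 of them, 71 higher and 73 lower, which is 10.21% of its tested genes, and the other chromosomes held 67, 22 higher and 45 lower, which is 0.369% of theirs. In IL7-3, 128 genes (0.653%) were called, 75 higher (0.383%) and 53 lower (0.271%). Chromosome 7 held 84 of them (5.96% of its tested genes), 43 higher and 41 lower, and the other chromosomes held 44 (0.242%), 32 higher and 12 lower.

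On chromosome 7 the calls followed the segments. In IL7-2, 87 of 448 genes in the shared segment (19.4%) were called, 39 higher and 48 lower, and 56 of 238 genes in its own stretch (23.5%), 32 higher and 24 lower. Before the segments 1 of 724 genes was called (0.138%). In IL7-3, 80 of the 448 shared genes (17.9%) were called, 41 higher and 39 lower, against 2 of 238 (0.84%) in the stretch that it lacks and 2 of 724 (0.276%) before the segment. Without IL7-2 replicate 1 the calls of IL7-2 numbered 70 in the shared segment and 42 in its own stretch, and without IL7-3 replicate 1 those of IL7-3 numbered 71 in the shared segment. Higher and lower calls were near balance, and the median log2 fold change over all tested genes of the shared segment was 0.01 in IL7-2 and -0.01 in IL7-3. What widened was the spread of the differences: the SD of the log2 fold change was 1.29 in IL7-2 and 1.33 in IL7-3 within the shared segment, against 0.42 in IL7-2 and 0.48 in IL7-3 before it.

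**Figure D1:**
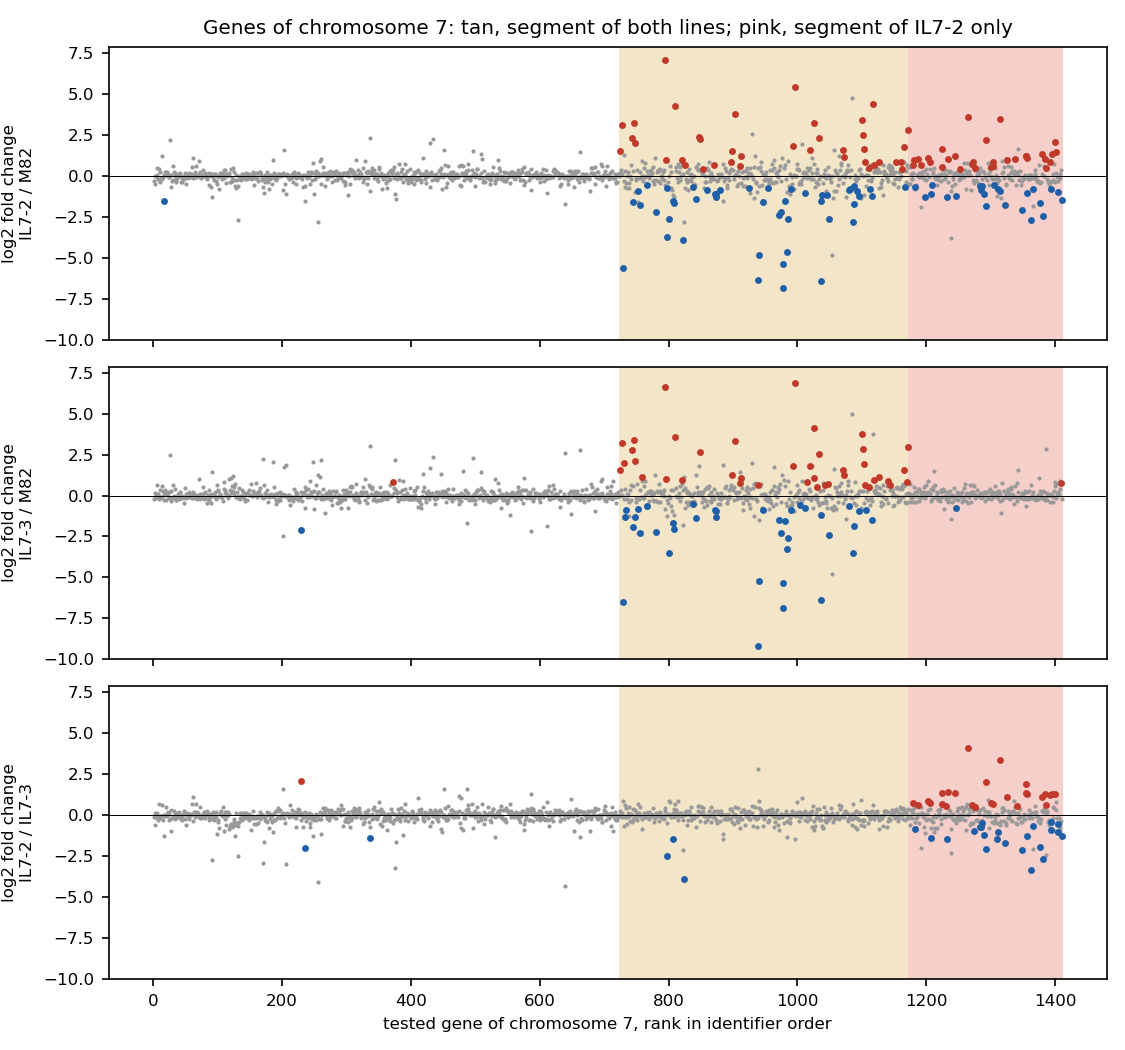
Log2 fold change (y axis) of the 1410 tested genes of chromosome 7 in identifier order (x axis, rank) for IL7-2 over M82, IL7-3 over M82 and IL7-2 over IL7-3, with the segment of both lines in tan and the stretch of IL7-2 alone in pink. Red points are genes called higher, blue points genes called lower and grey points genes not called; most called genes of both lines begin together, those of IL7-3 thin out where its segment ends, and the direct comparison has 51 of its 57 calls in the stretch of IL7-2 alone.

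Windows of 50 consecutive tested genes showed these edges without the position labels. In the first 14 windows the median absolute log2 fold change of IL7-2 over M82 was 0.12 to 0.21, and in the full windows from the 16th on it was 0.26 to 0.52. IL7-2 had 1 called gene in the first 14 windows together, and then 7 to 15 called genes in each full window from the window that starts at Solyc07g047680 to the end of the chromosome. IL7-3 had 2 called genes in those first 14 windows, 4 to 13 in each of the next 9 windows, 3 in the window that spans the end of its segment, and 1 in the 4 full windows after it. No full window inside the segments was free of calls in a line that carries it. The most heavily called window was the one from Solyc07g065940 to Solyc07g066560 in IL7-2, with 15 of 50 genes, and the one from Solyc07g055980 to Solyc07g056650 in IL7-3, with 13 of 50.

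**Figure D2:**
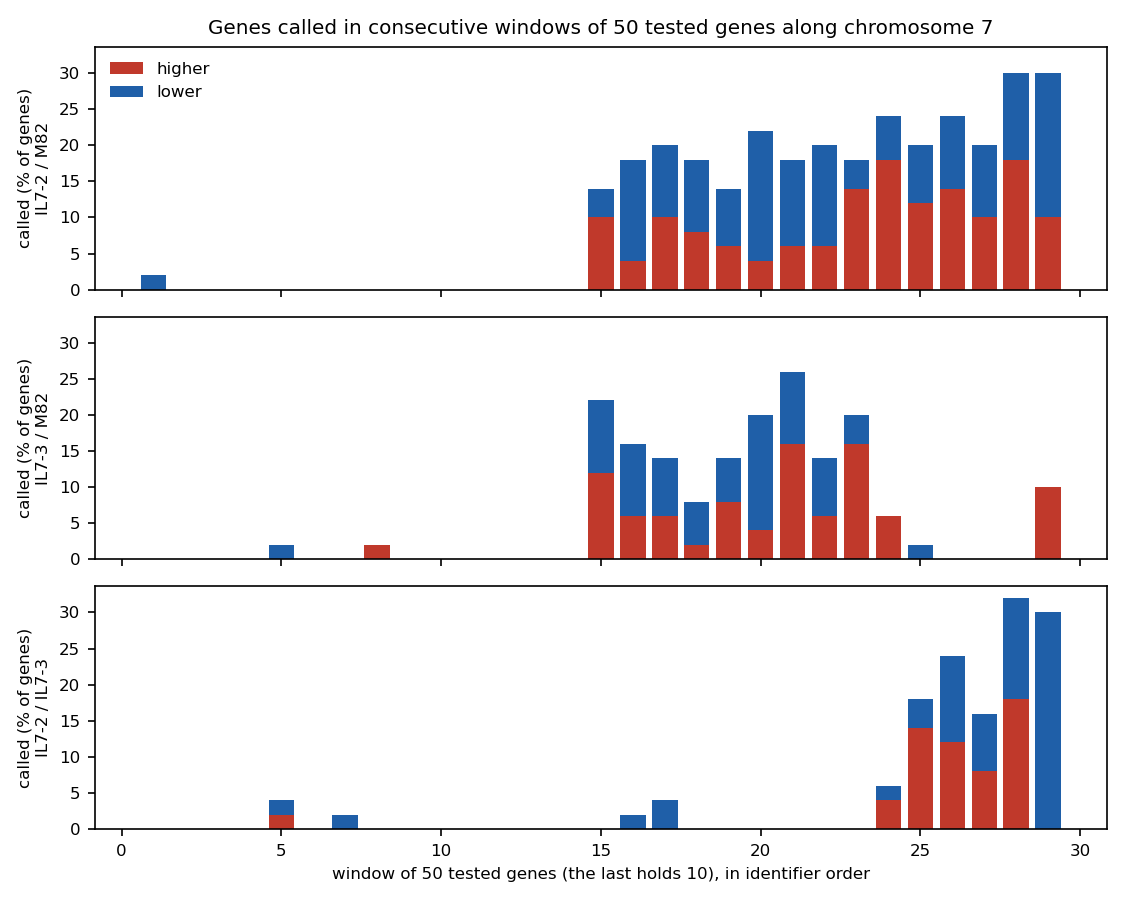
Percentage of genes called higher (red) and lower (blue) in 29 consecutive windows of tested genes along chromosome 7 for IL7-2 over M82, IL7-3 over M82 and IL7-2 over IL7-3. Before window 15 there is 1 call for IL7-2 and 2 for IL7-3; from there IL7-2 has calls in every window, IL7-3 in windows 15 to 25 and the last, and the direct comparison mostly from window 25 on, and the last window holds 10 genes.

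The authors counted the reads of each line against a reference that holds S. pennellii sequence inside the segment and M82 sequence elsewhere. Within a segment, a difference between line and M82 in expression and a difference in how well reads were placed on the 2 sequences cannot be told apart. In the shared segment both lines were counted against the same sequence, as they were outside the segments.

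The lines were then compared directly. Between IL7-2 and IL7-3, 121 genes (0.618%) were called, 43 higher (0.219%) and 78 lower (0.398%) in IL7-2. Of these, 57 lay on chromosome 7 (29 higher, 28 lower) and 64 on other chromosomes (14 higher, 50 lower). In the stretch that IL7-2 alone carries, 51 of 238 genes (21.4%) were called, 28 higher and 23 lower, against 44 without IL7-2 replicate 1 and 40 without IL7-3 replicate 1. In the shared segment 3 of 448 (0.67%) were called and before the segments 3 of 724 (0.414%). The SD of the log2 fold change between the lines was 0.44 in the shared segment, 0.82 in the stretch of IL7-2 alone and 0.51 on other chromosomes. In the shared segment the spread between the lines was thus smaller than between either line and M82, and close to that of other chromosomes.

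The comparisons of both lines with M82 share the M82 libraries, so their overlap was measured against a reference that is not M82: the mean of the 65 lines whose introgression is on another chromosome, over the 18860 genes with reads in each of those lines. Against that mean, 2.31% of genes were called for IL7-2 (1.07% higher, 1.24% lower) and 1.53% for IL7-3 (1.13% higher, 0.398% lower). Of the 81 genes called for IL7-2 against M82 in the shared segment that have such a value, 81 differed in the same direction between IL7-3 and those lines, and 65 were called there. Over all tested genes of the shared segment 81.3% had the same direction. Of the 75 genes called for IL7-3 against M82 in the segment, 75 had the same direction between IL7-2 and the other lines, and 68 were called. These overlaps were not measured without replicate 1 of IL7-2 and of IL7-3, which were grown at the same time. Their deviations from genotype means correlated at 0.717. Off chromosome 7 the shares in the same direction were near those of all genes, whereas calls were met more often. Of 61 genes called for IL7-2, 37 (60.7%) had the same direction in IL7-3, against 54.9% of all genes tested there, and 7 of the 61 were called in that direction, where 0.88% of all genes off chromosome 7 were called in either. Of 38 genes called for IL7-3, 18 (47.4%) had the same direction in IL7-2, against 56.1% of all genes, and 4 of the 38 were called with the same and 1 with the opposite direction, where 1.22% of all genes off chromosome 7 were called.

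S. pennellii, the source of the segments, differed from the same 65 lines at 43.8% of genes (21.4% higher, 22.4% lower). It moved in the same direction from those lines as IL7-2 did from M82 at 77 of 81 called genes of the shared segment (95.1%, against 72.8% of all tested genes there) and at 50 of 55 in the stretch of IL7-2 alone (90.9%, against 67.8%). For IL7-3 the direction was shared at 73 of 75 called genes of its segment (97.3%, against 75.3%). Off chromosome 7 it was shared at 31 of 61 called genes of IL7-2 (50.8%, against 48.2%) and at 21 of 38 of IL7-3 (55.3%, against 55.6%). S. pennellii libraries were also counted against S. pennellii sequence, so within the segments the lines and the wild parent have the reference in common.

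Genes were then taken by size of difference, among called genes with a mean of at least 5 CPM in either group and libraries that do not overlap. Genes that were close to silent in both lines led the lower side of the shared segment. Solyc07g054870 had 0, 0, 0.596 and 0.2 CPM in IL7-2 (3 reads in all) and no read in any IL7-3 library, against 14.7, 16.5, 16.2 and 15.8 CPM in M82 (263 reads). Its level was 98.1-fold lower in IL7-2 (95% counting interval 33.2 to 479) and at least 82.9-fold lower in IL7-3, taking 3 reads over the group as the floor, and the adjusted p was 2.9e-27 for IL7-2 and 3.5e-27 for IL7-3. S. pennellii had 0.236, 0.394 and 0 CPM, so both lines were at the level of the wild parent. The 65 lines of other chromosomes had 8.67 to 23.2 CPM, and none was near the level of these lines.

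Solyc07g048060, close to the start of the segment, behaved alike. It had 0.357, 0, 0.298 and 0.798 CPM in IL7-2 and 0.715, 0.242, 0 and 0 CPM in IL7-3, against 23, 15.9, 23.8 and 19.1 CPM in M82. The log2 fold change of IL7-2 was -5.65 ± 0.46 (SE, adjusted p = 6.4e-24), and IL7-3, with 3 reads in all, was 104-fold lower (counting interval 35.3 to 507, adjusted p = 2.3e-23). Every library of both lines was below every M82 library, as the criteria require, and S. pennellii averaged 0.384 CPM. The same low level stood in IL7-4 (0.239 CPM), whose labelled segment runs from Solyc07g005000 to Solyc07g055720 and covers this gene, whereas IL7-1 had 20.6 CPM, with a labelled segment that starts only at Solyc07g064140.

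On the higher side of the shared segment, Solyc07g054180 had 6.25, 5.45, 4.47 and 5.19 CPM in IL7-2 and 3.57, 4.12, 3.16 and 4.4 CPM in IL7-3, against 0.64, 0.199, 0.274 and 0.42 CPM in M82. The log2 fold change was 3.80 ± 0.45 in IL7-2 (adjusted p = 1.3e-12) and 3.31 ± 0.49 in IL7-3 (adjusted p = 6.6e-08). No library of either line overlapped M82, which the criteria required of IL7-2. S. pennellii had 5.18, 8.08 and 7.63 CPM, and IL7-4, which also carries the gene, had 4.04 CPM. Solyc07g056320 had 4.64, 5.67, 5.07 and 3.79 CPM in IL7-2 and 11.8, 13.8, 5.42 and 5.09 CPM in IL7-3, against 0.64, 0.795, 0.548 and 0 CPM in M82. Its log2 fold change was 3.23 ± 0.71 in IL7-2 (adjusted p = 0.0011) and 4.11 ± 0.64 in IL7-3 (adjusted p = 3.5e-07), and S. pennellii averaged 21.5 ± 3.1 CPM (SD, n = 3). This gene lies beyond the segment of IL7-4, which had 1.37 CPM. It also varied outside chromosome 7: the 65 other lines had 0.26 to 16.0 CPM, and 9 of them were above IL7-2.

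Solyc07g052700 departed from the wild parent. It had 91.1, 70.2, 43.8 and 59.7 CPM in IL7-2 and 65.4, 37.5, 32.1 and 32.2 CPM in IL7-3, against 3.52, 2.78, 2.74 and 4.42 CPM in M82, with a log2 fold change of 4.29 ± 0.25 (adjusted p = 4.6e-40) in IL7-2 and 3.60 ± 0.26 (adjusted p = 5.1e-29) in IL7-3. S. pennellii had 1 read in 3 libraries (0.236, 0 and 0 CPM), below M82. Both lines were therefore above both parents, and IL7-4 was as well, at 34.5 CPM, a log2 fold change of 3.34 ± 0.26 from M82 (adjusted p = 6.2e-26). None of the 65 lines of other chromosomes reached either line, the highest being 8.48 CPM. Between the 2 lines the log2 difference was 0.70 ± 0.19 with an adjusted p of 0.024, short of the threshold.

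In the stretch that IL7-2 alone carries, the 2 lines parted. Solyc07g064720 had 6.08, 11.34, 4.17 and 5.99 CPM in IL7-2, against 0.357, 0.484, 0 and 0.694 CPM in IL7-3, and a log2 fold change of 4.097 ± 0.453 between the lines (adjusted p = 3.3e-14). On average, IL7-3 (0.384 CPM) was near M82 (0.579 CPM), and IL7-2 (6.89 CPM) near S. pennellii (6.90 CPM). IL7-1, whose labelled segment also covers the gene, had 5.58 CPM. Solyc07g065110 had 721, 309, 543 and 494 CPM in IL7-2, against 200, 79, 118 and 104 CPM in IL7-3, a log2 fold change of 2.05 ± 0.30 (adjusted p = 6e-08). Here too the line without the segment was near M82 (125 ± 52 CPM in IL7-3, 114 ± 13 CPM in M82; SD, n = 4 each), the line with it near S. pennellii (517 ± 169 CPM in IL7-2, 436 ± 34 CPM in S. pennellii), and IL7-1 had 406 CPM.

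The genes furthest below IL7-3 in this stretch were lower in IL7-2 than in either parent. Solyc07g066080 had 1.07, 0, 0.895 and 0.2 CPM in IL7-2, against 12.15, 5.09, 4.75 and 3.01 CPM in IL7-3, with a log2 fold change of -3.37 ± 0.50 (adjusted p = 9.1e-08). Solyc07g066310 had 12, 6.54, 12.5 and 7.58 CPM in IL7-2, against 124, 53.5, 52.6 and 24.3 CPM in IL7-3, with a log2 fold change of -2.70 ± 0.41 (adjusted p = 2.5e-07). As the criteria require, the libraries of the lines did not overlap at either gene. IL7-2 was also below M82, by a log2 fold change of -2.71 ± 0.54 (adjusted p = 0.00021) at Solyc07g066080 and -2.43 ± 0.41 (adjusted p = 4.1e-06) at Solyc07g066310. S. pennellii averaged 3.06 CPM at Solyc07g066080, close to the 3.60 CPM of M82, and 27.2 CPM at Solyc07g066310, between IL7-2 (9.65 CPM) and M82 (52.0 CPM). IL7-1 had the low level of IL7-2 at both genes, with 0.47 CPM at Solyc07g066080 and 5.13 CPM at Solyc07g066310, and each of the 65 lines of other chromosomes averaged more than IL7-2.

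**Figure D3:**
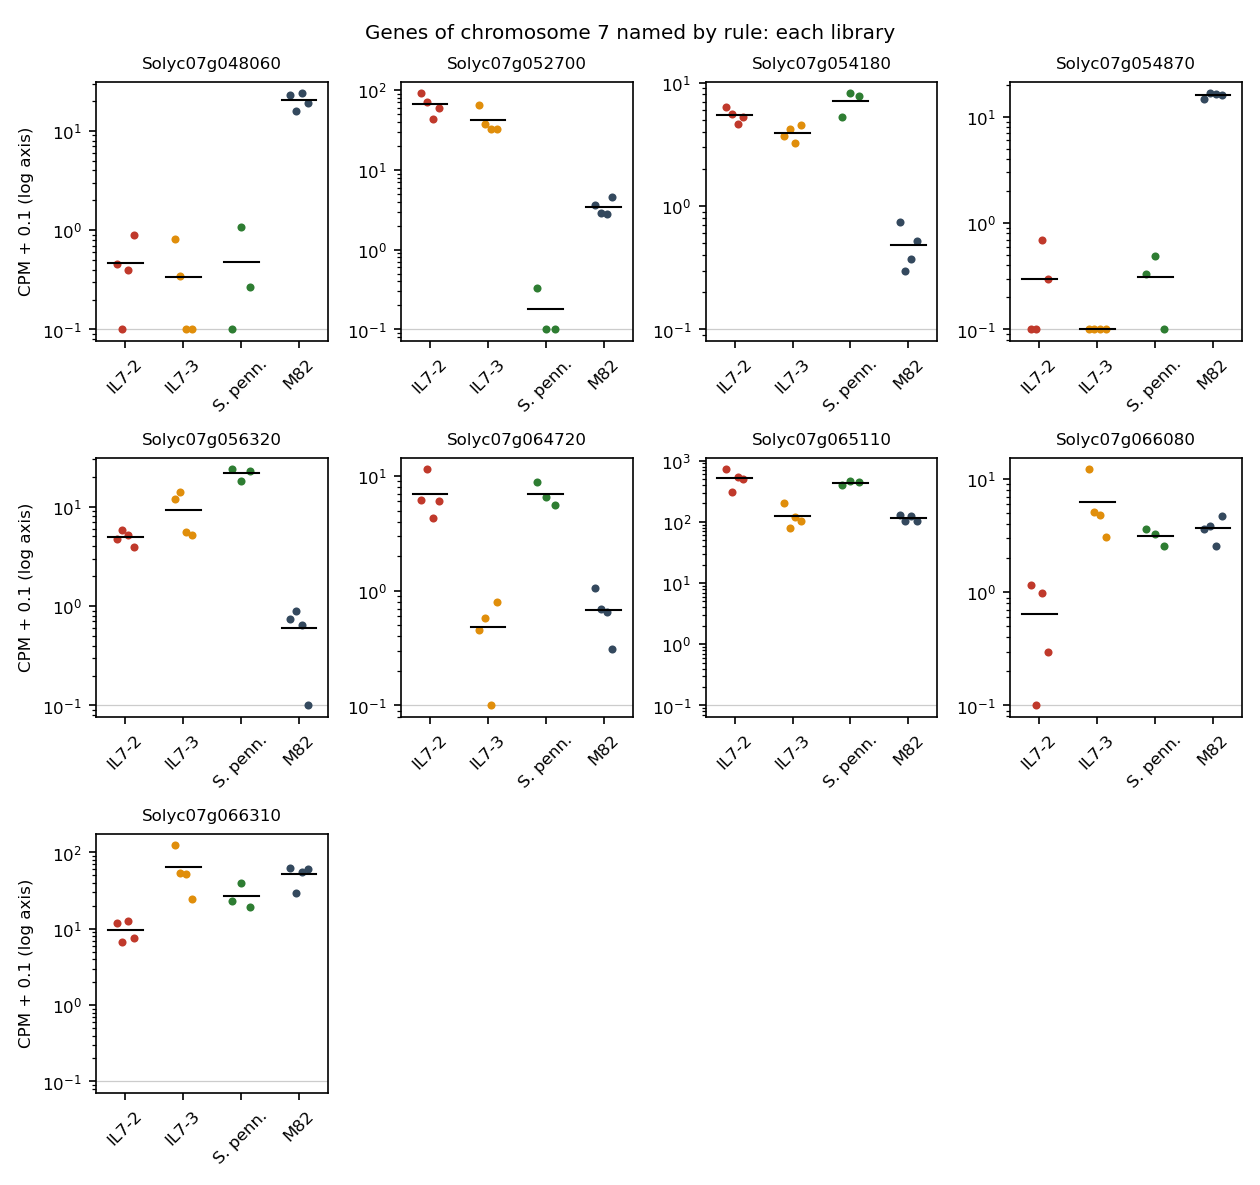
CPM plus 0.1 (log axis) of the 9 genes of chromosome 7 taken by size of difference, with 1 point a library and a bar at the mean, for IL7-2, IL7-3, S. pennellii and M82. The first 5 genes lie in the shared segment and separate both lines from M82; the last 4 lie in the stretch of IL7-2 alone, where IL7-3 stays near M82, and Solyc07g052700 is higher in both lines than in either parent.

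A few calls of chromosome 7 did not follow the segments, and the genes are named here after their values were seen. Of the 2 genes called for IL7-3 in the stretch that its labels leave out, Solyc07g064500 had 25.4, 29.1, 21.7 and 26.4 CPM in IL7-3, against 42.2, 47.3, 44.9 and 40.6 CPM in M82 (a log2 change of -0.77 ± 0.12, adjusted p = 1.2e-07). The libraries did not overlap, and IL7-2, which carries the gene's wild copy by label, averaged 18.7 ± 3.6 CPM (SD, n = 4, adjusted p = 4.7e-18 against M82). Solyc07g066660 had 155, 108, 91.5 and 94.9 CPM in IL7-3, against 61.1, 69.8, 64.1 and 70.4 CPM in M82 (0.75 ± 0.13, adjusted p = 5.3e-06). None of the 65 lines of other chromosomes averaged as much as IL7-3 or IL7-2 (86.7 CPM). IL7-2 was not called at this gene against M82 (0.38 ± 0.13, adjusted p = 0.1) but was against the 65 lines (adjusted p = 0.0011). S. pennellii averaged 57.1 CPM, below M82. Neither gene is close to the labelled end of the segment of IL7-3.

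Before the segments, the gene called for IL7-2 was Solyc07g005190, at 3.15 ± 1.21 CPM in IL7-2 and 9.29 ± 1.31 CPM in M82 (a log2 change of -1.54 ± 0.38, adjusted p = 0.0072). It was no longer called in 7 of the 8 fits that leave out a library, and kept its call only without M82 replicate 1. Those called for IL7-3 were Solyc07g008070, at 0.589 ± 0.152 CPM in IL7-3 and 2.44 ± 0.85 CPM in M82 (-2.08 ± 0.48, adjusted p = 0.0043), and Solyc07g017940 (0.83 ± 0.20, adjusted p = 0.008). The second was not called without the library that stands apart: its CPM were 402 in IL7-3 replicate 1 and 113 to 125 in the other IL7-3 libraries, against 99.8 to 122 in M82. Neither gene was called without M82 replicate 2, without M82 replicate 4 or with DESeq2. Between the lines, Solyc07g008070 was higher in IL7-2 (2.06 ± 0.48, adjusted p = 0.0051), and Solyc07g008130 (-2.04 ± 0.50, adjusted p = 0.0087) and Solyc07g016220 (-1.42 ± 0.34, adjusted p = 0.0081) were lower in IL7-2. None of the 3 was called without IL7-2 replicate 2, without IL7-2 replicate 4 or without IL7-3 replicate 2.

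In the shared segment, where the lines carry the same wild copy by label, the 3 genes called between them were all lower in IL7-2. Solyc07g053020 had 1 read in 4 IL7-2 libraries and 19 in 4 IL7-3 libraries (22.5-fold lower, counting interval 3.57 to 934, adjusted p = 0.00069). Solyc07g052470 averaged 0.413 CPM in IL7-2 and 2.36 CPM in IL7-3 (log2 fold change -2.49 ± 0.58, adjusted p = 0.0057), and S. pennellii averaged 2.28 CPM. Solyc07g052670 had 43.4, 17.7, 27.7 and 25.9 CPM in IL7-2, against 86.8, 125, 84.1 and 25.7 CPM in IL7-3 (-1.47 ± 0.34, adjusted p = 0.0057), and the lowest IL7-3 library lay within the range of IL7-2. These calls were unstable: with each of the 8 libraries left out in turn, 0 to 3 of the 3 genes were called, none without IL7-2 replicate 4 or without IL7-3 replicate 3, and none with DESeq2 or in the fit of the 3 genotypes alone.

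The gene of chromosome 7 on which the study centres lies before both segments. Solyc07g008570 (SlPAP27), which the study describes as a purple acid phosphatase, had 16.1, 18.1, 18.5 and 18.4 CPM in IL7-2 and 12.9, 23.7, 22.4 and 21.1 CPM in IL7-3, against 21.4, 16.9, 21.6 and 19.8 CPM in M82. Its log2 fold change was -0.16 ± 0.20 in IL7-2 (95% interval -0.55 to 0.23) and 0.04 ± 0.20 in IL7-3 (-0.35 to 0.43), and neither was called (adjusted p = 0.82 for IL7-2 and 0.97 for IL7-3). The libraries of the 3 genotypes overlapped, whereas S. pennellii averaged 71.3 CPM and IL7-4, which carries the gene, 62.3 CPM. Its paralog Solyc07g008550 averaged 32.7 ± 5.6 CPM in IL7-2, 36.74 ± 11.08 CPM in IL7-3 and 33.3 ± 1.1 CPM in M82, and was not called either (adjusted p = 0.97 for IL7-2 and 0.82 for IL7-3).

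Off chromosome 7, the 67 calls of IL7-2 were spread over all 11 other chromosomes, with 3 to 11 on each, and 45 of the 67 were lower than in M82. The 44 calls of IL7-3 included 8 on chromosome 3 and 7 on chromosome 2, none on chromosome 10, and 32 of the 44 were higher than in M82. These counts depended on single libraries, which the plot of counts with a library left out shows. For IL7-2 against M82 the count fell to 32 (11 higher) without IL7-2 replicate 1 and to 32 without M82 replicate 4, 36 without IL7-2 replicate 2, 40 without M82 replicate 2 and 42 without IL7-2 replicate 4. For IL7-3 it fell to 29 (18 higher) without IL7-3 replicate 1, to 27 without M82 replicate 2 and to 24 without M82 replicate 4. The balance of directions moved as well: without IL7-2 replicate 2 the calls of IL7-2 were 19 higher and 17 lower, and with DESeq2 those of IL7-3 were 11 higher and 12 lower. In the fit of the 3 genotypes alone IL7-3 had 4 higher and 4 lower. On chromosome 7 the counts moved less, to 112 for IL7-2 without its replicate 1 and to 75 for IL7-3 without its replicate 1.

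**Figure D4:**
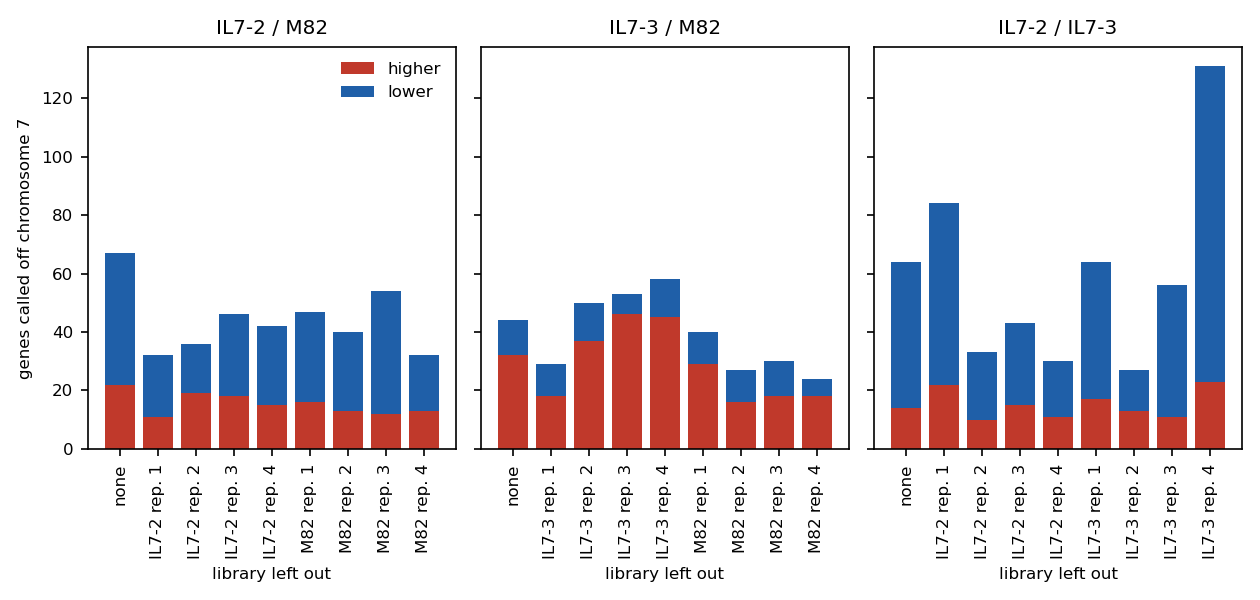
Number of genes of other chromosomes called higher (red) and lower (blue) with all libraries (none) and with each library left out in turn, for IL7-2 over M82, IL7-3 over M82 and IL7-2 over IL7-3. The count for IL7-2 over IL7-3 runs from 27 without IL7-3 replicate 2 to 131 without IL7-3 replicate 4, against 64 with all libraries.

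Between the lines the count of 64 genes off chromosome 7 was the least settled. It was 131 without IL7-3 replicate 4, 84 without IL7-2 replicate 1, 64 without IL7-3 replicate 1, 33 without IL7-2 replicate 2, 30 without IL7-2 replicate 4 and 27 without IL7-3 replicate 2. With the replicate number as a block it was 113 genes, 22 higher and 91 lower in IL7-2, and the 64 were among them. On chromosome 7 the count was 57 with all libraries, 54 without IL7-2 replicate 1, 45 without IL7-3 replicate 1 and 36 without IL7-2 replicate 4.

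Solyc11g011570 and Solyc03g045140 were the highest rises off chromosome 7 by the same criteria in each line against M82, comparisons that share the M82 libraries. Solyc11g011570 had 6.61, 4.58, 6.56 and 4.39 CPM in IL7-2 and 18.6, 6.05, 5.42 and 6.71 CPM in IL7-3, against 0, 0.397, 0 and 0 CPM in M82. With 2 reads in M82, IL7-2 was 45.6-fold higher (counting interval 12.29 to 381, adjusted p = 1.9e-09) and IL7-3 68.7-fold higher (18.6 to 573, adjusted p = 2e-13). M82 was at the low end of the panel: 47 of 65 lines of other chromosomes were above it, with a median of 1.64 and a highest mean of 8.0 CPM, and 7 of them were above IL7-2. The gene was also called above M82 in IL7-1 (3.48 CPM, adjusted p = 1.6e-05), whose labelled segment starts beyond the shared one. The same held for IL7-4 (3.18 CPM, adjusted p = 2.2e-05), and IL7-5 averaged 6.7 CPM.

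Solyc03g045140 had 18.8, 24.6, 19.1 and 20.9 CPM in IL7-2 and 27.9, 30, 20.8 and 30.3 CPM in IL7-3, against 4.16, 4.77, 3.29 and 1.68 CPM in M82. The log2 fold change was 2.59 ± 0.31 in IL7-2 (adjusted p = 4.5e-12) and 2.97 ± 0.31 in IL7-3 (adjusted p = 6.6e-16). As the criteria require, no library of either line reached down to M82. Here again M82 was low, with 55 of the 65 lines above it and a median of 10.26 CPM. S. pennellii averaged 1.63 CPM, below the lines and M82. IL7-4 was called above M82 at this gene (16.8 CPM, adjusted p = 5.2e-09) and IL7-1 was not (4.08 CPM, adjusted p = 0.95). IL7-4-1 averaged 22.8 CPM and IL7-5 17.4 CPM.

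At 4 genes called for IL7-3 against M82 off chromosome 7, IL7-2 was called in the same direction against the 65 lines. These were Solyc03g045140, Solyc03g114800, Solyc03g114960 and Solyc12g006000. Against the 65 lines, IL7-3 itself was not called at Solyc03g114800 (0.39 ± 0.15, adjusted p = 0.13) but was at the others. M82 was called below those lines at Solyc03g045140 (adjusted p = 0.0022) and Solyc03g114800 (adjusted p = 0.0023). Solyc03g114960 had 12.33, 19.8, 22.7 and 17.8 CPM in IL7-2 and 15, 19.6, 16.3 and 22 CPM in IL7-3, against 40.3, 31, 43 and 32 CPM in M82, with a log2 fold change of -1.02 ± 0.19 (adjusted p = 6.3e-05) in IL7-2 and -0.98 ± 0.19 (adjusted p = 0.00023) in IL7-3. IL7-4 had 14.9 CPM, S. pennellii 18.0 CPM and IL7-1 41.7 CPM, with IL7-5 at 23.4 CPM and IL7-4-1 at 28.2 CPM. The 65 lines of other chromosomes ran from 4.73 to 58.2 CPM, with 56 of them above IL7-2 and 56 above IL7-3. Solyc12g006000 averaged 19.2 ± 2.4 CPM in IL7-2, 18.4 ± 3.7 CPM in IL7-3 and 32.7 ± 3.5 CPM in M82, with log2 fold changes of -0.77 ± 0.17 in IL7-2 (adjusted p = 0.0016) and -0.83 ± 0.18 in IL7-3 (adjusted p = 0.0009). Of the 65 other lines, 64 averaged more than IL7-2 and 65 more than IL7-3. M82 was toward the high end, with 5 of those lines above it. Against the 65 lines the log2 fold change was -0.48 ± 0.13 in IL7-2 and -0.54 ± 0.13 in IL7-3. Solyc03g114800 was higher in both lines (adjusted p = 1.3e-08 for IL7-2 and 3.6e-05 for IL7-3), at 20.1 ± 2.9 CPM in IL7-2, 16.8 ± 3.8 CPM in IL7-3 and 6.62 ± 2.19 CPM in M82, and 52 of the 65 other lines were above M82. The last 3 of the 4 genes were named after their values were seen.

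Solyc12g040640 differed from M82 in IL7-2 and not beyond the threshold in IL7-3. It had 1.25, 0.436, 1.19 and 0.998 CPM in IL7-2, against 11.5, 8.94, 7.39 and 8.41 CPM in M82 (a log2 change of -3.18 ± 0.62, adjusted p = 0.00015), and IL7-3, at 8.48 ± 5.03 CPM, was not called against M82 (-0.06 ± 0.43, adjusted p = 0.98). The direct comparison of the lines gave -3.12 ± 0.63 (adjusted p = 0.00049). Against the mean of the 65 other lines, which ran from 0.468 to 34.7 CPM, IL7-2 was not called (-2.03 ± 0.56, adjusted p = 0.014), and 62 of them were above IL7-2. IL7-1 was also low, at 1.86 CPM, with a log2 fold change of -2.35 ± 0.57 from M82 and an adjusted p of 0.011 that missed the threshold. Solyc12g098400 was lower in both lines. It had 0.179, 0.872, 0 and 0.2 CPM in IL7-2 and 2.5, 1.7, 1.81 and 1.85 CPM in IL7-3, against 7.68, 10.5, 11.23 and 16.8 CPM in M82. The log2 fold change was -5.08 ± 0.44 (adjusted p = 1.2e-22) in IL7-2 and -2.60 ± 0.33 (adjusted p = 3.3e-11) in IL7-3. Between the lines it was -2.47 ± 0.65, with an adjusted p of 0.02 that did not pass the threshold. M82 was the exception here, since 1 of 65 lines of other chromosomes was above it and their median was 0.528 CPM.

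IL7-3 was close to silent at 2 genes that IL7-2 and M82 both expressed. Solyc06g035940 had 1.79, 1.21, 0.452 and 0.463 CPM in IL7-3, against 283, 337, 290 and 264 CPM in M82 (a log2 change of -8.31 ± 0.72, adjusted p = 1.3e-21). IL7-2 had 210, 464, 263 and 242 CPM, a log2 fold change of 8.32 ± 0.72 over IL7-3 (adjusted p = 4.5e-21). The low level was shared with S. pennellii (1.57 CPM), with IL7-1 (1.37 CPM) and with 5 of 65 lines of other chromosomes that averaged under 1 CPM, while the median of those lines was 168 CPM. Solyc12g010760 had 0, 0, 0.226 and 0 CPM in IL7-3 (1 read), against 13.1, 15.5, 11.23 and 12.6 CPM in M82, and 19.6, 17.2, 15.5 and 13.2 CPM in IL7-2. IL7-3 was 208-fold lower than M82 (counting interval 37.0 to 8258, adjusted p = 3.5e-22), and IL7-2 was 259.5-fold higher than IL7-3 (46.2 to 10280, adjusted p = 1.7e-25). At this gene the low state was the common one, with 41 of the 65 other lines under 1 CPM and S. pennellii at 0.066 CPM.

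The genes furthest below IL7-3 in IL7-2 off chromosome 7 were expressed at low levels. Solyc09g082480 had 0.715, 0, 0.298 and 0 CPM in IL7-2, against 10, 4.12, 4.97 and 4.86 CPM in IL7-3 (log2 fold change -4.28 ± 0.62, adjusted p = 3.4e-08), with M82 between them at 2.63 ± 1.75 CPM (SD, n = 4). From M82, IL7-2 differed (-3.26 ± 0.71, adjusted p = 0.0011) and IL7-3 did not pass the threshold (1.02 ± 0.40, adjusted p = 0.26). IL7-1 (0.045 CPM) and IL7-4 (0 CPM) were low as well, and 35 of the 65 other lines averaged under 1 CPM. Solyc11g006740 had 0.536, 0.436, 0.298 and 0.798 CPM in IL7-2, against 8.93, 5.09, 3.84 and 5.09 CPM in IL7-3 (-3.29 ± 0.44, adjusted p = 1.8e-09). M82 averaged 0.99 CPM, from which IL7-3 differed (2.396 ± 0.401, adjusted p = 3e-06) and IL7-2 did not pass the threshold (-0.89 ± 0.63, adjusted p = 0.64). At both genes IL7-3 replicate 1 had the highest value of all 12 libraries. Both were taken on condition that the libraries of the 2 lines do not overlap, so leaving that library out could not make them overlap.

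**Figure D5:**
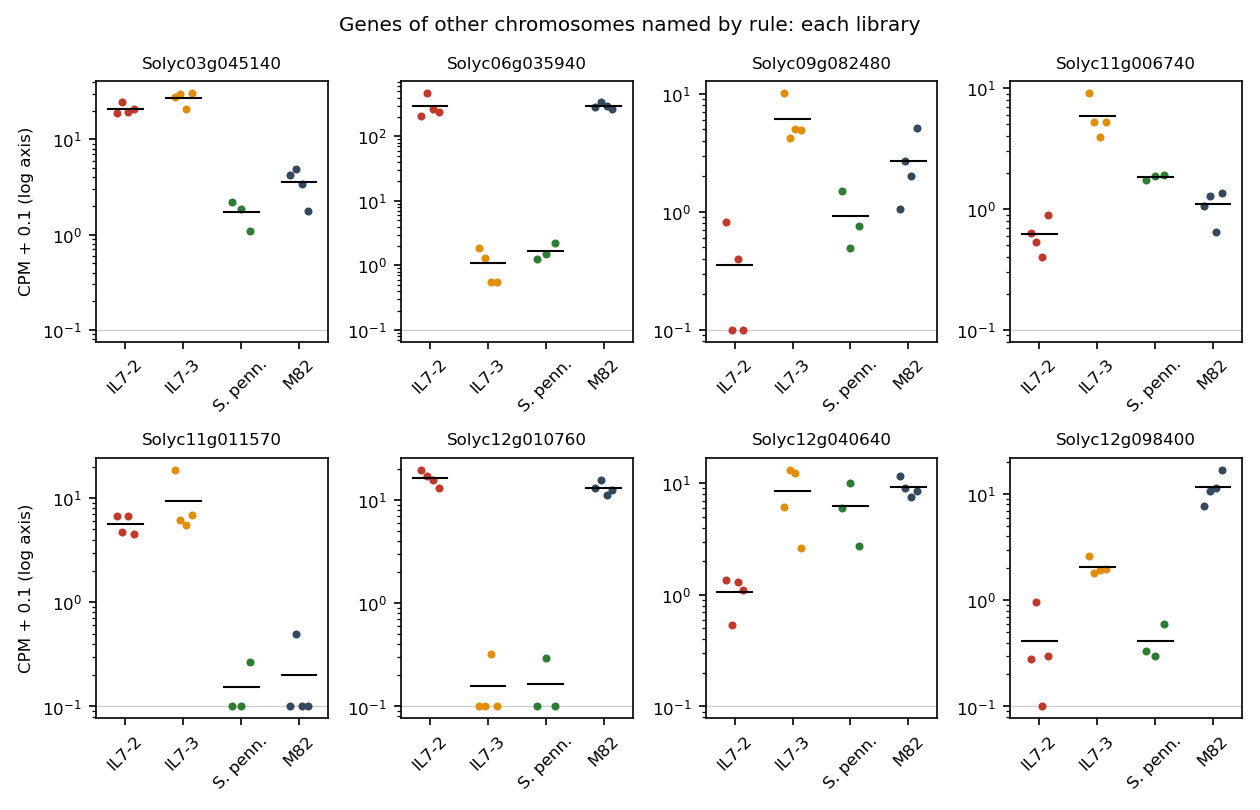
CPM plus 0.1 (log axis) of the 8 genes of other chromosomes taken by size of difference, with 1 point a library and a bar at the mean, for IL7-2, IL7-3, S. pennellii and M82. Solyc03g045140 and Solyc11g011570 are higher in both lines than in either parent, Solyc06g035940 and Solyc12g010760 are low in IL7-3 and S. pennellii, and Solyc12g040640 is lower in IL7-2 than in the other 3 genotypes plotted.

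As a control, the study's reference gene for quantitative PCR, Solyc01g014230 (a U-box domain-containing protein), averaged 26.5 ± 3.8 CPM in IL7-2, 27.8 ± 5.6 CPM in IL7-3 and 31.1 ± 4.1 CPM in M82 and was called in neither line (adjusted p = 0.57 for IL7-2 and 0.74 for IL7-3). Solyc06g054080, the CDC73 homolog, is a candidate of the study for root angle and not a control. It averaged 19.6 ± 2.9 CPM in IL7-2, 19.6 ± 5.4 CPM in IL7-3 and 21.4 ± 2.4 CPM in M82 (adjusted p = 0.84 for IL7-2 and 0.86 for IL7-3).

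Finally, the reference was exchanged. The libraries of each line stayed the same, so the counts that follow are no independent check of the lines. Of the 67 genes called off chromosome 7 for IL7-2, 61 had a value against the mean of the 65 lines. Of these 61 genes, 60 kept their direction and 38 were called in it. At 6 of the 61, M82 itself was called against those lines. For IL7-3 the numbers were 38 with a value, 38 in the same direction, 27 called and 5 at which M82 was called. Within the shared segment 81 of 81 genes of IL7-2 and 75 of 75 of IL7-3 were called against that reference as well. Against the 65 lines, IL7-2 had 213 calls off chromosome 7 (1.22%), 87 higher and 126 lower, and IL7-3 154 (0.88%), 135 higher and 19 lower, and on chromosome 7 IL7-2 had 223 calls and IL7-3 134.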

How the data were processed

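RNA was sequenced as single-end reads from root tips of 77 genotypes (305 libraries). The authors mapped reads with BWA to a coding reference for each line, M82 outside and S. pennellii inside the introgression, and counted them with SAMtools. Versions were not given in the sources used here. Raw counts were deposited for 29633 genes, and 9 further columns of per-sample values were not used. Segment ends were read from the cis and trans labels of genes in the authors' comparison table, so they are known to the nearest listed gene; its fold changes and p-values were not used. Normalized tables were not used.

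The counts were fitted in R 4.3.3 with edgeR 4.0.16: TMM scaling, filterByExpr (19591 genes kept), 1 quasi-likelihood fit over all genotypes, Benjamini-Hochberg adjustment over all genes and calls at 0.01. CPM were computed from the deposited counts and TMM-scaled library sizes. The fit was run on simulated counts with known changes in IL7-2, drawn at a dispersion that was also given to the fit. That run could not test how the dispersion is estimated or the effect of a library that stands apart. DESeq2 1.42.0 and the other settings of the closing section were alternatives, and those over all libraries kept the dispersion of the full fit. SE is the log2 fold change over the root of F, and 95% intervals are 1.96 SE. Counting intervals are exact binomial and cover counting error only.

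The genes named are, per comparison, on chromosome 7 and off it, at most 2 that rose and 2 that fell: called, with libraries that do not overlap, a mean of at least 5 CPM in either group and the largest fold change. The gene and marker lists planned by function could not be applied, since identifiers have no names here. Members and lists were chosen with earlier results of these data known.

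Replicate numbers mark plating dates and shared sequencing pools. Deviations from genotype means correlated at 0.717 between IL7-2 and IL7-3 replicate 1 and at -0.0562 to 0.332 in the other pairs of the same number.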

Additional observations from a re-analysis of the deposited data

Results flagged for a closer look

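For 34 genes given above, each group of 4 libraries was examined for a library whose gap to its nearest neighbour exceeds what the range of the group allows. In 9 of 102 groups 1 library stood apart. The nominal rate of the rule, about 1 in 20, holds for normally distributed values. It is no measure for groups near 0 reads or for genes chosen by their values. IL7-3 replicate 1 was high at Solyc07g052700 (65.4 CPM), Solyc11g011570 (18.6 CPM), Solyc09g082480 (10.01 CPM) and Solyc07g017940 (402 CPM). IL7-2 replicate 1 was low at Solyc07g008570 (16.1 CPM), and M82 replicate 1 was high at Solyc07g017940 (122 CPM). The others were single libraries with 1 or 2 reads in groups otherwise at 0: M82 replicate 2 at Solyc11g011570 (0.397 CPM), IL7-3 replicate 3 at Solyc12g010760 (0.226 CPM) and IL7-2 replicate 3 at Solyc07g053020 (0.298 CPM).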

How the results depend on the processing

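On chromosome 7 and off it, the counts of called genes were 144 and 67 for IL7-2 against M82, 84 and 44 for IL7-3 against M82, and 57 and 64 for IL7-2 against IL7-3. DESeq2 size factors in place of TMM, and no filter on low counts, moved none of these by over 1.5 times. With edgeR's exact test the counts were 90 and 55, 51 and 26, and 33 and 59, and with DESeq2 on the 3 genotypes 89 and 55, 49 and 23, and 32 and 53. With the quasi-likelihood fit on the 3 genotypes alone they fell to 37 and 12, 25 and 8, and 11 and 7. A replicate block on those libraries, chosen after seeing the data, gave 55 and 25, 33 and 16, and 21 and 21. Both fits estimated the spread from those libraries alone, and the cause of the fall was not tested. A mean of at least 5 CPM gave 25 off chromosome 7 for IL7-3 against M82 and 37 between the lines. An adjusted p of at most 0.05 gave 163, 113 and 236 off chromosome 7. With the mean of the 65 lines in place of M82 the counts were 223 and 213 for IL7-2 and 134 and 154 for IL7-3; the cause was not tested.

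Without 1 library at a time, off chromosome 7, the counts ran from 32 to 54 for IL7-2 against M82, 24 to 58 for IL7-3 against M82 and 27 to 131 between the lines. On chromosome 7 they ran from 112 to 126, 67 to 82 and 36 to 55. The replicate block in the fit of all libraries gave 113 genes off chromosome 7 between the lines and moved no other of these counts by over 1.5 times. For the genes named by the rule, 382 of 385 values under alternatives kept their direction and their side of the threshold. The 3 others no longer passed it: Solyc12g040640 for IL7-2 with the 65 lines as reference (-2.03), and Solyc07g066080 (-3.38) and Solyc07g066310 (-2.70) between the lines in the fit of 3 genotypes alone. None reversed. Depth limits what can be said of genes under about 1 CPM, where a library holds 3 to 6 reads.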
